A study of Mus musculus with 8 samples.

Results

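The 78 protein-coding genes for mitochondrial ribosomal proteins, 29 of the small and 49 of the large subunit, were followed in Ptf1a-lineage cells of the fetal mouse hypothalamus. They were taken by symbol, as every protein-coding gene named Mrps or Mrpl followed by a number, among 51826 genes in the tables. The subunit was read from the symbol. Another 5 rows with such names were pseudogenes with no exon read in any library and were not counted. All 78 genes passed the low-count filter.

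Homozygous cells carried Ptf1a cre/cre and Ai9/+ (libraries 9 to 12), and heterozygous cells carried Ptf1a cre/+ and Ai9/+ (libraries 1 to 4), both on C57BL/6. Every library therefore came from mice with a Cre knock-in allele at Ptf1a and the red fluorescent Ai9 reporter, and no Cre-free group was compared. The gene Ptf1a is known as a selector of inhibitory neuron fates. Hypothalami at embryonic day 14.5 were digested with papain, live RFP-positive cells were sorted, and 10 ng of total RNA per library entered a stranded total-RNA kit with paired reads of 36 bases. The comparison asks how expression in this lineage differs between animals with no intact and with 1 intact Ptf1a copy. The labels do not say whether each library is a separate embryo, so p-values reflect only how far these libraries spread, in part perhaps for technical reasons.

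Mitochondrial ribosomes translate the few messenger RNAs of the mitochondrial genome, all of which encode subunits of the oxidative phosphorylation complexes. Their ribosomal RNAs, mt-Rnr1 in the small and mt-Rnr2 in the large subunit, are mitochondrially encoded. Every protein component is encoded in the nucleus, made on cytosolic ribosomes and imported. Many have bacterial counterparts, others are specific to mitochondria, and in humans inherited defects in several of them cause combined deficiencies of the respiratory chain.

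Ptf1a itself had 0 exon reads in homozygous libraries, which allows up to 0.272 CPM at 3 reads over the group, and 1 read in heterozygous libraries, in library 3, so it does not check the genotypes. Total exon reads were 2571054 to 3009181 in homozygous and 2502387 to 2979647 in heterozygous libraries. Summed neuronal markers (Tubb3, Stmn2 and 4 others) lay at 4102 to 5187 CPM in homozygous and 4034 to 4653 CPM in heterozygous libraries, where CPM is reads per 1000000 exon reads. Hypothalamic markers (Nkx2-1, Isl1 and 7 others) lay at 963 to 1309.6 CPM in homozygous and 872 to 1058 CPM in heterozygous libraries. Of the 6 neuronal markers 3 were called higher and 1 lower in homozygous cells, and of the 9 hypothalamic markers 1 higher and 4 lower. Among all tested genes 6.96% were called higher and 6.12% lower. Progenitor markers (8 genes) summed to 692 to 1149.8 CPM in homozygous and 566 to 931 CPM in heterozygous libraries. Markers of other cells were lower. Endothelium (6 genes) summed to 9.5 to 205 CPM in homozygous and 5.3 to 148 CPM in heterozygous libraries, mesenchyme (6 genes) to 7.0 to 207 CPM in homozygous and 6.3 to 27.4 CPM in heterozygous libraries, and erythroid cells (7 genes) to 3.2 to 87.9 CPM in homozygous and 4.1 to 106 CPM in heterozygous libraries. Myeloid markers (7 genes) and pituitary markers (6 genes) stayed at or under 23.2 CPM in homozygous and 13.8 CPM in heterozygous libraries, and none of them passed the low-count filter. No marker was at 0 in all libraries, none of the markers of these 5 other cell types was called between genotypes, and the part of all these markers in the results was not tested. The share of reads in introns, ribosomal RNA aside, was 53.0% to 64.4% in homozygous and 57.5% to 67.2% in heterozygous libraries. In sorted bulk RNA, fewer cells of a type and less RNA per cell cannot be told apart.

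The start regions of 4 members are shown, a called member and others extreme in difference or level. Of these 4 only Mrpl10 was called, and Mrpl38, the other called member, had no matched promoter. Mrpl10 (chr11:97041332-97041631, plus strand) was called lower in homozygous cells. Mrps12 (chr7:28741772-28742071, minus strand) had the lowest log2 fold change, homozygous over heterozygous, of the small subunit. Mrpl32 (chr13:14612988-14613287, minus strand) had the highest log2 fold change of all members. Mrpl52 (chr14:54426659-54426958, plus strand) was the most abundant member per length. Each region runs from 250 bases before to 50 bases after the annotated start and is credited to RefSeq, build GRCm38.p6. Capitals mark letters searched on both strands, the NRF1 motif, CCGGAAG for ETS factors such as GABPA, and AAGATGGC for YY1. The end of the ETS letters can overlap the start of the YY1 letters.
Mrpl10: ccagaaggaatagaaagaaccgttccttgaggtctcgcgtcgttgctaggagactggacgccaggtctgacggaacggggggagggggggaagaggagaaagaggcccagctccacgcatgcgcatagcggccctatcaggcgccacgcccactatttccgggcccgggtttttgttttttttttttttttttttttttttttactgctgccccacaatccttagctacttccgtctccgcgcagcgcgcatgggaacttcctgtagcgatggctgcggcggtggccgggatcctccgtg
Mrps12: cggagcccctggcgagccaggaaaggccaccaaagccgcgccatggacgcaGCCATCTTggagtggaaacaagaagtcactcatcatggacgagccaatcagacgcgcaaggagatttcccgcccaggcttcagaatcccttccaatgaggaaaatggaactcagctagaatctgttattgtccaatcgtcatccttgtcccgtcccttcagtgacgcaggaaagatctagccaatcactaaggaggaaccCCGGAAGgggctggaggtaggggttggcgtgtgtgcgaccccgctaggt
Mrpl32: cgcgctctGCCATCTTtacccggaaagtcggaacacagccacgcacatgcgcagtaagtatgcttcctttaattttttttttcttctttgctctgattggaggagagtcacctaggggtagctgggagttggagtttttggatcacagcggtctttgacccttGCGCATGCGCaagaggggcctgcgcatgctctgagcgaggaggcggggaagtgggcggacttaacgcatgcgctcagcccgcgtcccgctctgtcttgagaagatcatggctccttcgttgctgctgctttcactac
Mrpl52: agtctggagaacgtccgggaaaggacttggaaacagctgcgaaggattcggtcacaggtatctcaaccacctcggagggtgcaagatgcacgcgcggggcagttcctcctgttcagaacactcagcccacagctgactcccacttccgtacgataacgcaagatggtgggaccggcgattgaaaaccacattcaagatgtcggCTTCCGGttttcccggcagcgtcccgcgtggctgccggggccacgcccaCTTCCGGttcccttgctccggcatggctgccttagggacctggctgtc

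Mrpl10 held none of the searched letters, Mrps12 held the ETS and the YY1 letters, Mrpl32 the NRF1 and YY1 letters, and Mrpl52 the ETS letters at 2 places. RefSeq promoters were matched for 69 members in 75 windows. The NRF1 letters occurred in 13 of the 75 windows (17.3%), against 10.2% of windows of tested genes and 4.60% of all 32851 windows. The ETS letters occurred in 26 windows (34.7%), against 17.2% and 8.86% in the same 2 sets. The YY1 letters occurred in 12 windows (16%), against 4.48% and 2.75%. At least 1 of the 3 was present in 43 members and none in 26. Members with the NRF1 letters had a median log2 fold change of -0.08 and those without -0.11. For the ETS letters these medians were -0.19 and -0.08, and for the YY1 letters -0.29 and -0.09. After the correction for transcript GC content described below, they were -0.127 and -0.118 for NRF1, -0.215 and -0.104 for ETS, and -0.182 and -0.123 for YY1. Differences between members with and without the letters were not tested. These matches describe letters in a window only.

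Most mitochondrial ribosomal protein genes were not called different between homozygous and heterozygous cells. Of the 78, 2 were called lower in homozygous cells (Mrpl10 and Mrpl38, both of the large subunit), none was called higher, and 76 were not called (edgeR quasi-likelihood test, Benjamini-Hochberg adjusted p under 0.05 over all 12257 genes tested). The members' 2.56% stood beside 13.1% of all tested genes called, 6.12% lower and 6.96% higher in homozygous cells. Among the 8850 tested genes within the members' range of mean level, 5.16 to 96.0 CPM, 9.19% were called. DESeq2 likewise gave 2 lower and 0 higher, with 16.3% of all genes called, 8.4% lower and 7.85% higher. At an unadjusted p under 0.05 there were 14 members, 5 small-subunit and 9 large-subunit genes, or 17.9%, against 29.3% of all tested genes. Without library 3, 6 members were called lower, 1 of them (Mrps24) of the small subunit and 5 of the large, or 7.69% of members beside 8.77% of all genes called lower in that fit (1115 against 750 with all libraries). Without library 4, 11 or 12 no member was called.

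The log2 fold changes of the small subunit, homozygous over heterozygous, had a median of -0.13 and middle range of -0.43 to 0.11, and 18 of 29 were negative. Those of the large subunit had a median of -0.15 and middle range of -0.41 to 0.21, and 30 of 49 were negative. Across all tested genes the median was 0.04 and 46.5% were negative. The interquartile range was 0.58 for members and 0.72 for all tested genes. No member differed more than 2-fold except Mrpl10, and 9 differed more than 1.5-fold. The median 95% interval of a member reached 0.48 to either side on the log2 scale, equal to 1.39-fold. The interval held 0 for 63 members and excluded a 2-fold difference for 56, and smaller differences were often not resolved at this depth. These intervals used a normal multiplier of the SE, with no allowance for the few libraries, so they are approximate and may be too narrow.

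**Figure D1:**
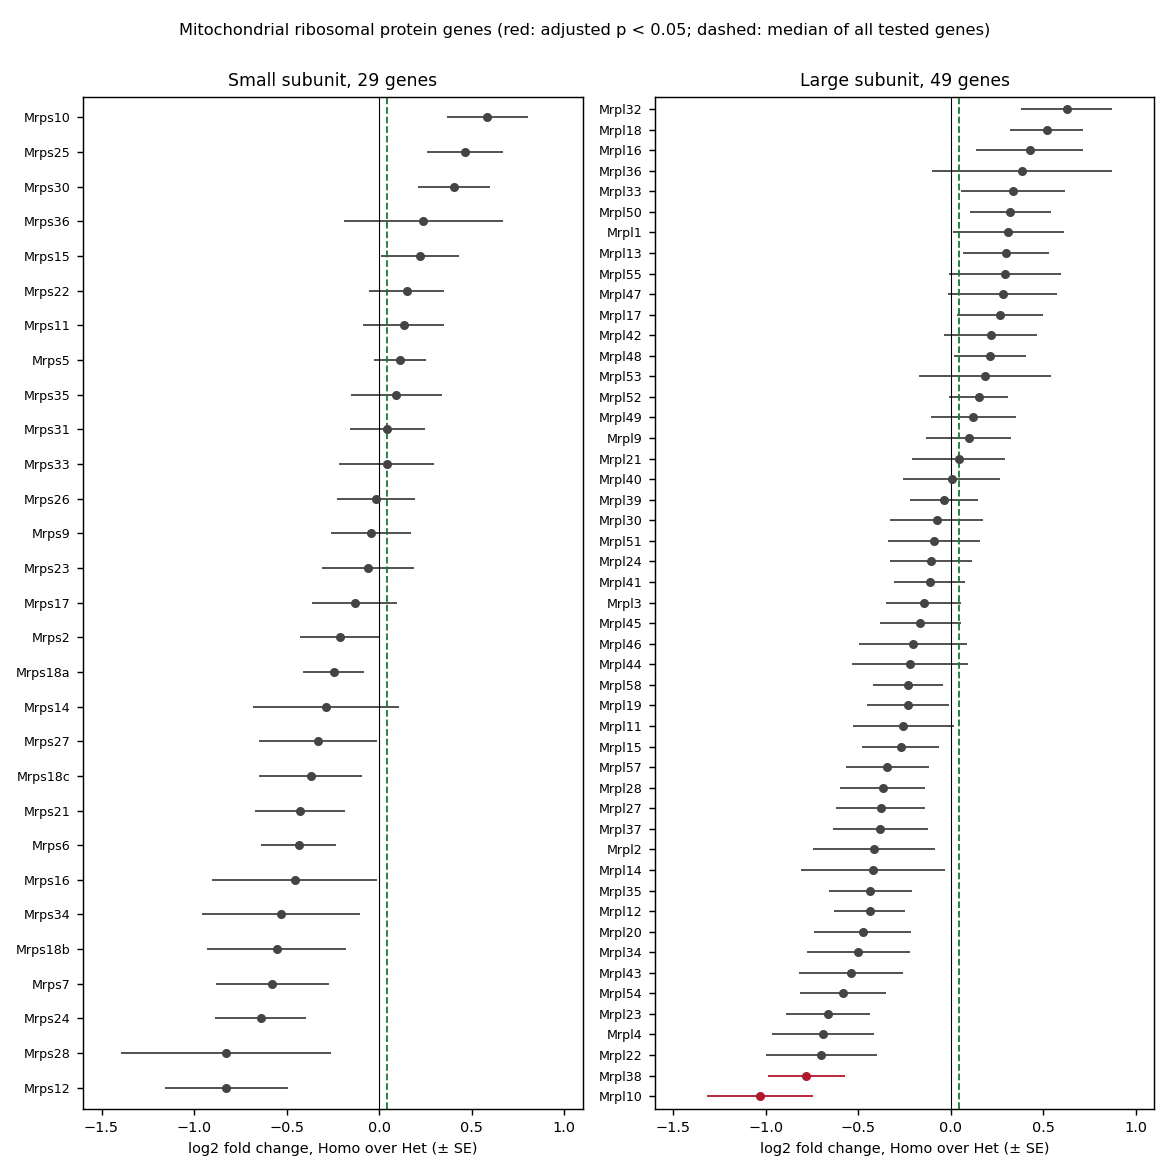
Log2 fold change, homozygous over heterozygous, of each of the 78 members (points) with its SE (lines), small and large subunit apart. The dashed line is the median of all tested genes, 0.04, red points are the 2 called members, and Mrpl10 and Mrpl38 lie at -1.03 and -0.78.

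Within the large subunit, Mrpl10 (ENSMUSG00000001445, chr11:97041560-97049213, GRCm38) encodes the protein that anchors the stalk where translation factors bind. Its level was 16.5, 9.29, 8.43 and 9.81 CPM in homozygous libraries, against 20.2, 20.4, 26.6 and 23.2 CPM in heterozygous libraries, in the library orders 9, 10, 11, 12 and 1, 2, 3, 4 that hold throughout. All homozygous libraries lay below all heterozygous ones, with library 9 nearest to them. The log2 fold change was -1.03 (SE 0.29, adjusted p = 0.0307). The adjusted p ran from 0.0135 to 0.544 over the alternatives, and the call was lost without library 2, 4, 10, 11 or 12 and after correction for transcript GC content (log2 fold change -0.89, adjusted p = 0.127). Gm11574 overlaps the gene on the other strand, and use of strand in the counting is not given in the sources used here.

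Mrpl38 (ENSMUSG00000020775, chr11:116131817-116138868, GRCm38) encodes a mitochondria-specific protein of the large subunit. Its level was 31.6, 28.3, 23.5 and 18.1 CPM in homozygous libraries, against 44.1, 36.8, 44.3 and 49.5 CPM in heterozygous libraries. The genotypes did not overlap, and library 2 was the lowest heterozygous one. The log2 fold change was -0.78 (SE 0.21, adjusted p = 0.0251), and all exon reads of the gene were unique. Its adjusted p ran from 0.00324 to 0.643 over the alternatives. The call was lost without library 1, 4, 11 or 12 and after GC correction, where the log2 fold change was -0.36 (adjusted p = 0.386). Transcript GC content was 59.6% for Mrpl38 and 52.5% for Mrpl10, with a member median of 49.8%.

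Non-overlapping levels were found in 4 members, all lower in homozygous libraries and all of the large subunit. That was 5.13% of members, against 19.6% of all tested genes in either direction and 9.34% in the lower and 10.3% in the higher direction. Beside Mrpl10 and Mrpl38 these were Mrpl22 and Mrpl23, whose bacterial counterparts line the exit tunnel of the nascent chain. Mrpl22, named after its values were seen, was at 14.03, 10.9, 7.33 and 14.5 CPM in homozygous libraries, against 14.9, 23.7, 20.04 and 17.3 CPM in heterozygous libraries. Mrpl23 was at 19.996, 18.6, 22.4 and 14.1 CPM in homozygous libraries, against 35.1, 25.4, 26.2 and 32.5 CPM in heterozygous libraries. Their log2 fold changes were -0.70 (SE 0.30, adjusted p = 0.141) and -0.66 (SE 0.23, adjusted p = 0.067), neither past the threshold. Only 8.46% of the Mrpl23 reads were unique, so its value is uncertain.

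**Figure D2:**
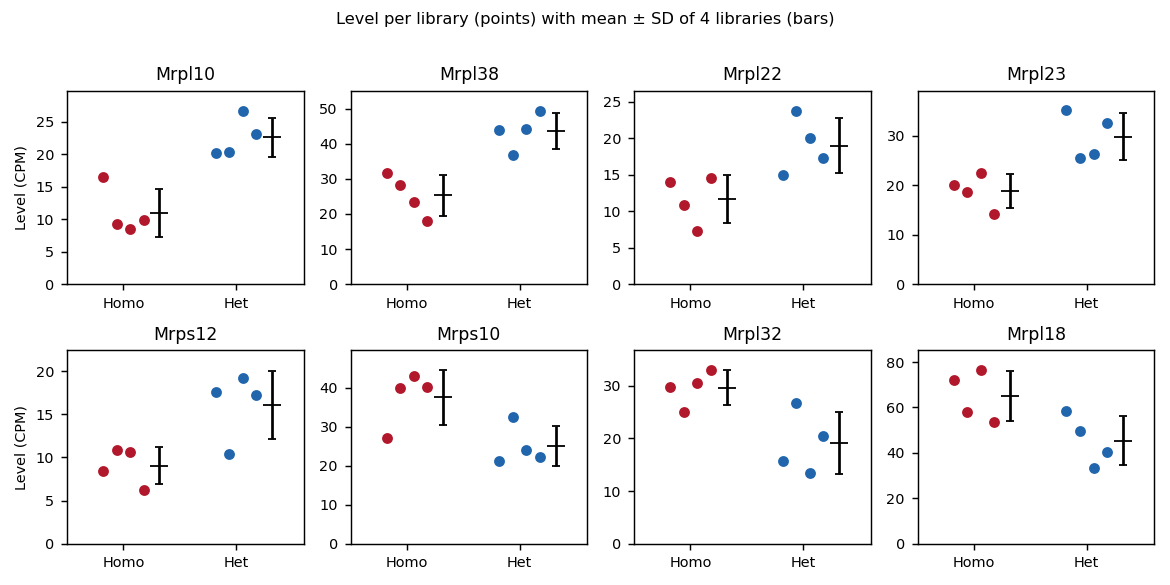
Levels in CPM of selected members, one point per library, homozygous left of heterozygous in each panel, with the mean ± SD of 4 libraries beside the points. Mrpl10 averaged 11.004 CPM in homozygous and 22.6 CPM in heterozygous libraries, with no overlap.

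On the positive side, Mrpl32, a large-subunit protein whose precursor is processed in the mitochondrial matrix, had the largest log2 fold change of the members. It lay at 29.8, 25.03, 30.4 and 32.97 CPM in homozygous libraries, against 15.7, 26.7, 13.5 and 20.4 CPM in heterozygous libraries. The log2 fold change of 0.63 (SE 0.25, adjusted p = 0.105) did not pass the threshold, the genotypes overlapped, and it was 0.18 after GC correction. Mrpl18, counterpart of a bacterial protein of the central protuberance, was at 71.9, 58.1, 76.6 and 53.4 CPM in homozygous libraries, against 58.3, 49.8, 33.1 and 40.5 CPM in heterozygous libraries. Its log2 fold change was 0.52 (SE 0.20, adjusted p = 0.0931), and 0.54 after GC correction. The lowest homozygous library lay below the highest heterozygous one for each of these genes.

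Small-subunit members had no call in either direction. The most negative value was that of Mrps12, which encodes a protein of the decoding centre, at 8.42, 10.9, 10.6 and 6.28 CPM in homozygous libraries, against 17.6, 10.4, 19.3 and 17.3 CPM in heterozygous libraries. Its log2 fold change was -0.83 (SE 0.33, adjusted p = 0.114). Mrps28 was at 5.61, 2.83, 4.03 and 2.35 CPM in homozygous libraries, against 7.84, 10.7, 3.08 and 4.84 CPM in heterozygous libraries, as few as 6 reads in a library, with a log2 fold change of -0.83 (SE 0.57, adjusted p = 0.357). The ranges of both genes overlapped between genotypes, and neither difference passed the threshold.

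The highest small-subunit log2 fold changes were those of Mrps10 and Mrps25. Mrps10, which has a bacterial counterpart in the head of the subunit, was at 27.01, 39.96, 42.9 and 40.04 CPM in homozygous libraries, against 21.3, 32.4, 23.9 and 22.1 CPM in heterozygous libraries, and its log2 fold change was 0.58 (SE 0.22, adjusted p = 0.0909). Mrps25, a mitochondria-specific protein, was at 101, 70.6, 52.4 and 64.8 CPM in homozygous libraries, against 49.7, 56.5, 63.2 and 40.5 CPM in heterozygous libraries, with a log2 fold change of 0.46 (SE 0.21, adjusted p = 0.151). The genotypes of each overlapped, and GC correction brought the values to 0.40 and 0.18. Mrps24, counterpart of a bacterial protein at the messenger entry, was among the 3 small-subunit genes with the highest level per length in heterozygous cells and averaged 24.5 ± 4.59 CPM in homozygous and 38.1 ± 12.8 CPM in heterozygous libraries. It had a log2 fold change of -0.64 (SE 0.25, adjusted p = 0.1).

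Genes whose human counterparts are known from inherited respiratory-chain deficiency included Mrps16, Mrps22, Mrps34, Mrpl3, Mrpl12 and Mrpl44. Mrps16 averaged 6.04 ± 2.03 CPM in homozygous and 8.29 ± 1.77 CPM in heterozygous libraries and Mrps22 39.4 ± 8.93 CPM in homozygous and 35.4 ± 4.78 CPM in heterozygous libraries (SD, n = 4 each). Mrpl12, which forms the stalk with Mrpl10, averaged 36.6 ± 7.77 CPM in homozygous and 49.6 ± 6.62 CPM in heterozygous libraries, and its log2 fold change was -0.44 (SE 0.19, adjusted p = 0.147). Mrpl3 had a log2 fold change of -0.15 (SE 0.20, adjusted p = 0.678), Mrpl44, which carries an RNase III-like fold, -0.22 (SE 0.31, adjusted p = 0.682), and Mrps34 -0.53 (SE 0.43, adjusted p = 0.436). None of these passed the threshold.

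Mrpl58, a peptidyl-tRNA hydrolase that rescues stalled mitochondrial ribosomes, averaged 47.4 ± 9.92 CPM in homozygous and 55.6 ± 8.81 CPM in heterozygous libraries, with a log2 fold change of -0.23 (SE 0.19, adjusted p = 0.451). Mrps36, a small-subunit gene here by its symbol, is known for a subunit of the 2-oxoglutarate dehydrogenase complex. It averaged 9.48 ± 3.63 CPM in homozygous and 8.02 ± 2.33 CPM in heterozygous libraries. The paralogs Mrps18a, Mrps18b and Mrps18c had log2 fold changes of -0.25 (SE 0.17, adjusted p = 0.349), -0.55 (SE 0.38, adjusted p = 0.351) and -0.37 (SE 0.28, adjusted p = 0.404). After GC correction the Mrps18a value was 0.03, while those of Mrps18b and Mrps18c were -0.39 and -0.69. No call was made for these 5 genes.

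In several members many reads mapped to more than 1 place, so 19 had under 80% unique exon reads and their values are uncertain. The median over members was 98.3%. Mrpl53 had 0% unique reads, Mrpl33 24.2%, Mrpl17 30.6%, Mrps34 30.7%, Mrps18b 37.4%, Mrpl27 39.3% and Mrps36 45.2%, and Mrpl2 lay among them too. Mrps5, with 78.4% unique reads, had the highest mean of all members in reads, 99.7 ± 5.995 CPM in homozygous and 92.3 ± 14.5 CPM in heterozygous libraries. Of the others, Mrpl51, Mrpl40, Mrpl21, Mrpl48, Mrpl42 and Mrps33 had log2 fold changes from -0.09 to 0.22, with no call. Mrpl23, described with the non-overlapping members, Mrps25 (63.1%), Mrpl3 (59.2%) and Mrps18a (65.8%) were also under 80%. From unique reads alone the log2 fold change was -0.03 for Mrps18b, -0.08 for Mrps34, 0.01 for Mrpl33, -1.26 for Mrpl2 and 0.48 for Mrps25, and Mrpl23 and Mrpl53 could not be tested. In all, 41 members overlapped another annotated gene, 13 on the same and 35 on the other strand.

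Levels per length, in the authors' deposited RPKM (reads per kilobase of exon and 1000000 reads), spanned 8.81-fold among small-subunit genes in homozygous and 14.1-fold in heterozygous cells. Among large-subunit genes they spanned 30.6-fold in homozygous and 35.2-fold in heterozygous cells. RPKM was not TMM-scaled, and the median ratio of homozygous to heterozygous means over 11809 tested genes was 0.912 in RPKM and 1.022 in CPM (0.793 and 0.909 over members), so RPKM is used here to rank genes, and 10 members were lower in homozygous cells by RPKM but higher by CPM. Mrpl52 was at 25.03 ± 4.79 RPKM in homozygous and 25.5 ± 6.65 RPKM in heterozygous libraries and led both genotypes. Mrpl18 was second in homozygous cells, at 12.5 ± 3.94 RPKM in homozygous and 9.86 ± 3.41 RPKM in heterozygous libraries. Mrpl41, like Mrpl52 specific to mitochondria, was at 10.98 ± 2.93 RPKM in homozygous and 13.4 ± 2.10 RPKM in heterozygous libraries, and Mrpl34 was at 7.84 ± 1.51 RPKM in homozygous and 12.97 ± 5.07 RPKM in heterozygous libraries. The errors of Mrpl41 and Mrpl34 overlapped in each genotype, so their order was not resolved. Of the small subunit, Mrps6 and Mrps21, both with bacterial counterparts, were highest. Mrps6 was at 8.69 ± 2.58 RPKM in homozygous and 13.05 ± 2.96 RPKM in heterozygous libraries. Mrps21 was at 8.72 ± 4.12 RPKM in homozygous and 12.9 ± 3.48 RPKM in heterozygous libraries, and the errors of the 2 genes overlapped. The median RPKM of small-subunit genes was 2.55 in homozygous and 3.28 in heterozygous cells, and that of large-subunit genes 2.88 in homozygous and 3.76 in heterozygous cells.

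At the low end, Mrpl33 was at 0.817 ± 0.155 RPKM in homozygous and 0.725 ± 0.188 RPKM in heterozygous libraries and Mrps10 at 1.20 ± 0.0667 RPKM in homozygous and 0.927 ± 0.273 RPKM in heterozygous libraries. Their exon lengths in the tables were 7326 and 8079 bases, against a member median of 2102, since they are mostly the union of all annotated transcripts, and this lowers RPKM for genes with long alternative exons. Mrps35 (8631 bases) and Mrpl1 (4295 bases) had 0.995 and 1.29 RPKM in homozygous and 1.062 and 1.15 RPKM in heterozygous cells. The median coefficient of variation between libraries was 23.8% in homozygous and 21.4% in heterozygous cells for small-subunit genes. For large-subunit genes it was 22.2% in homozygous and 20.9% in heterozygous cells.

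**Figure D3:**
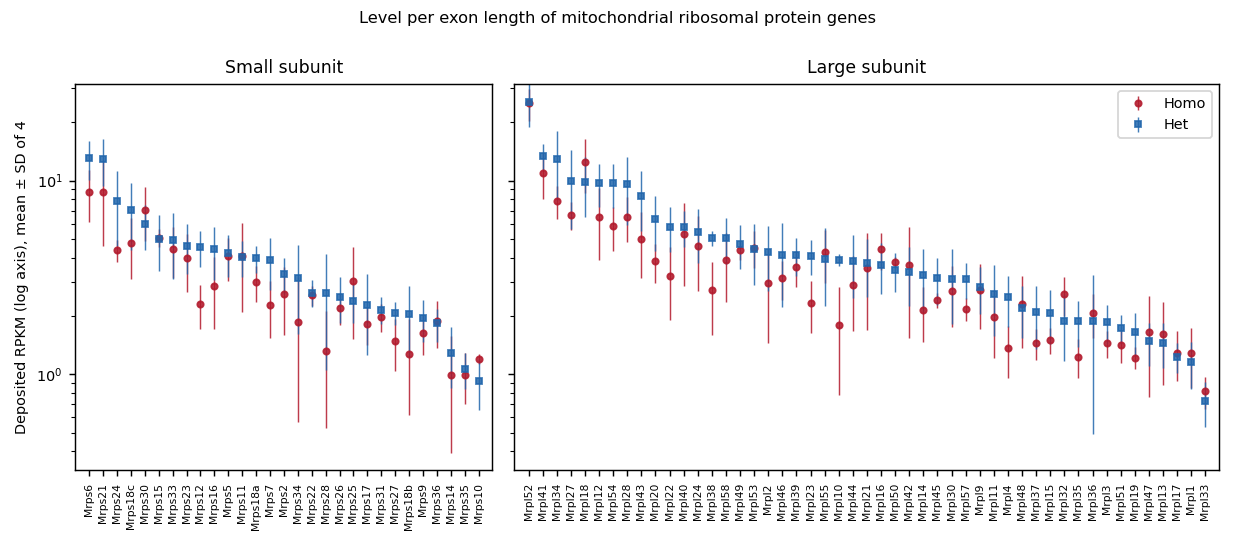
Mean RPKM ± SD (n = 4) of each member in homozygous and heterozygous cells on a log axis, small and large subunit apart, ordered by the heterozygous mean. Mrpl52 lies highest at 25.03 RPKM in homozygous and 25.5 RPKM in heterozygous cells, and Mrpl33 lowest in both.

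Summed over genes, the large subunit took 1390.3, 1375.3, 1331.6 and 1238.1 CPM in homozygous libraries and 1515.5, 1567.2, 1276.2 and 1346.8 CPM in heterozygous libraries. The small subunit took 860.2, 827.9, 832.4 and 840.8 CPM in homozygous libraries, against 919.8, 931.7, 809.6 and 817.7 CPM in heterozygous ones. Heterozygous libraries 1 and 2 were above all others for both subunits, and libraries 3 and 4 lay among or below the homozygous ones. Both subunits together averaged 2174.2 ± 72.7 CPM in homozygous and 2296.1 ± 201.7 CPM in heterozygous libraries (SD, n = 4 each), a ratio of 0.947. Without libraries 1 and 2, the heterozygous mean was 2125.1 CPM. These sums are descriptions with no test.

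**Figure D4:**
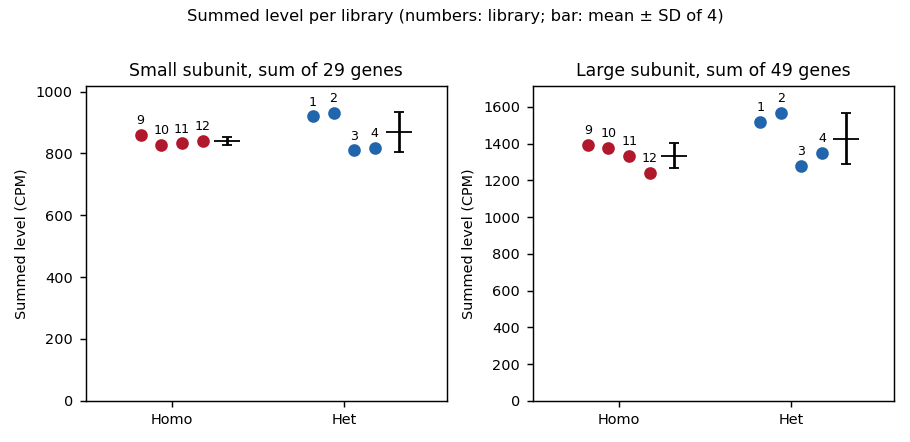
Summed CPM of small-subunit and large-subunit genes per library, homozygous left of heterozygous, with the mean ± SD of 4 libraries beside the points. Heterozygous libraries 1 and 2 stand highest in both, at 919.8 and 931.7 CPM for the small subunit.

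Log2 fold changes were lower in members of higher transcript GC content, and in all tested genes of higher GC content. The correlation across genes was r = -0.53 over 78 members and r = -0.52 over 12238 tested genes with a GC value. Genes share libraries and are not independent, so these are descriptions. The 39 members below a GC content of 49.8% had a median of 0.04, 18 of them negative, and the 39 above it a median of -0.38, 30 negative. For all tested genes on either side of that value the medians were 0.30 and -0.24. Slopes on GC content were taken for log2 CPM minus each gene's mean over all libraries, so they are relative to the other libraries. They were -0.32 to -0.18 per 10 percentage points in homozygous and 0.05 to 0.42 in heterozygous libraries. GC slope and genotype therefore cannot be told apart, and libraries 1 and 2 had the steepest positive slopes, 0.41 and 0.42.

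After correction for GC content no member was called, with 2.43% of 12238 genes called, 1.05% lower and 1.38% higher. The median was -0.23 in the small subunit, where 21 of 29 were negative, and -0.13 in the large subunit, where 34 of 49 were negative, beside 0.01 for all tested genes. In 43 members the log2 fold change was negative with and without the correction. The correlation with GC content was then 0.26 over members and 0.02 over all genes.

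**Figure D5:**
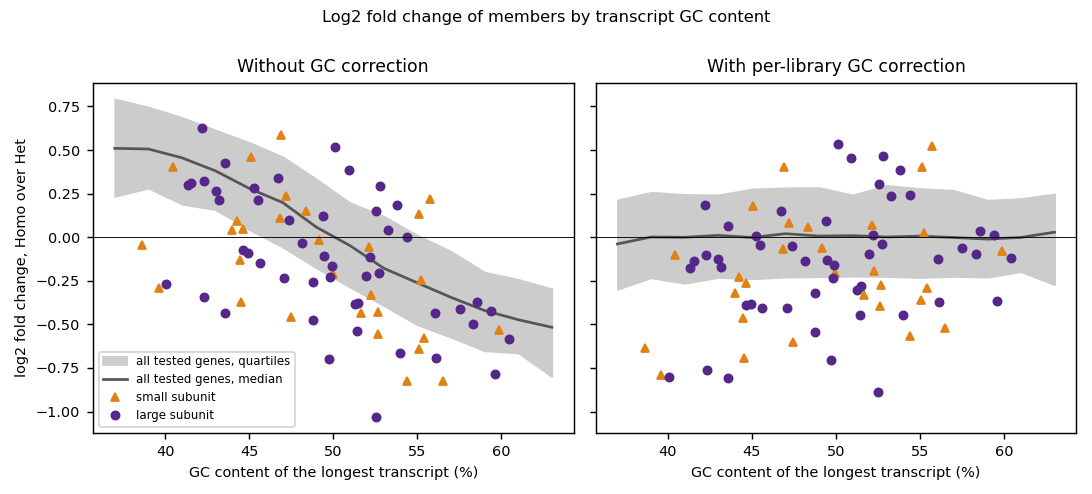
Log2 fold change of members against transcript GC content in percent, before and after GC correction, with the median (line) and quartiles (band) of all tested genes in GC bins. Before correction, values of members are lower at higher GC content (r = -0.53), like the line.

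Introns and splice junctions gave further readouts of the same libraries. Intron reads made up 27.8% to 43.3% of small-subunit gene reads in homozygous and 21.7% to 37.7% in heterozygous libraries. For large-subunit genes the share was 20.0% to 32.4% in homozygous and 15.8% to 27.7% in heterozygous libraries. Of 52 members that passed the filter on intron reads none was called, with 0.564% of 17010 genes called. Of 57 members that passed it on exon-exon junction reads 1 was called, Mrpl23, lower in homozygous cells with an adjusted p of 0.0118 (4.05% of 7066 genes called lower). Its adjusted p over the alternatives ran from 0.0118 to 0.555.

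Other proteins that belong to the mitochondrial ribosome but have other names showed 1 call among 5, beside 13.1% of all tested genes. Ptcd3 averaged 64.5 ± 4.51 CPM in homozygous and 43.2 ± 9.86 CPM in heterozygous libraries and was called higher, with a log2 fold change of 0.58 (SE 0.18, adjusted p = 0.0469). The call was lost without library 1, 2, 9, 10, 11 or 12 and after GC correction (log2 fold change 0.18). Of 23 tested assembly factors, 1 (4.35%) was called higher and none lower, below the share of all tested genes. It was Mterf3, which encodes a factor needed for mitochondrial ribosome assembly in mice, at 29.7 ± 3.27 CPM in homozygous and 14.5 ± 3.35 CPM in heterozygous libraries, with a log2 fold change of 1.03 (SE 0.24, adjusted p = 0.0132) and 0.61 after GC correction (adjusted p = 0.21).

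No call was made among 13 mitochondrial translation factors (median log2 fold change 0.17), 12 genes of mitochondrial genome expression (0.14) or 11 regulators of mitochondrial gene sets (0.10). At an unadjusted p under 0.05 in edgeR were 3, 3 and 2 of them (23.1%, 25% and 18.2%), against 29.3% of all tested genes. Of the regulators, Nrf1 was at 65.99 CPM in homozygous and 68.9 CPM in heterozygous libraries, and Yy1 at 97.4 CPM in homozygous and 92.1 CPM in heterozygous libraries. Among 20 genes for charging mitochondrial tRNAs, 2 were called lower and none higher, a share of 10% beside 13.1% of all tested genes. Vars2 averaged 11.9 ± 5.08 CPM in homozygous and 24.2 ± 4.63 CPM in heterozygous libraries, a log2 fold change of -1.03 (SE 0.31, adjusted p = 0.0404), with 65.5% unique reads, and the call was lost without library 1, 2, 4, 9, 11 or 12 and after GC correction. Lars2 averaged 10348 ± 3297 CPM in homozygous and 21505 ± 7496 CPM in heterozygous libraries, a log2 fold change of -1.06 (SE 0.26, adjusted p = 0.016), and -0.97 after GC correction (adjusted p = 0.0511). Its level was over 100 times that of every other gene in the list in each genotype, and the origin of these reads was not examined, so the value may not stand for Lars2 messenger RNA.

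Of 13 tested mitochondrially encoded messenger RNAs, 11 were called higher in homozygous cells and none lower (8 and 0 after GC correction), with a median log2 fold change of 1.19 (0.61 after it). Of all tested genes 6.96% were called higher, and 1.38% after GC correction. With 1 library left out the higher calls in the list were 9 to 11, and 3 to 7 with GC correction, where 1 lower call also arose. The fit on total gene reads called 0 of all tested genes higher, against 853 from exon reads. None of the 11 higher calls therefore held in that readout. mt-Nd6, a complex I gene, averaged 501 ± 85.6 CPM in homozygous and 168 ± 44.5 CPM in heterozygous libraries. mt-Nd2, likewise of complex I, averaged 1068 ± 194 CPM in homozygous and 445 ± 73.2 CPM in heterozygous libraries. Unique reads were 99.9% of the exon reads of mt-Nd6 and 95.8% of those of mt-Nd2, but 54.7% for mt-Nd4 and 1.77% for mt-Atp6, whose values (log2 fold changes 1.27 and 1.46) are uncertain for that reason. The ribosomal RNAs were counted in whole-gene reads only, and the kit removes ribosomal RNA. mt-Rnr1 took 23426 ± 2969 reads per 1000000 in homozygous and 14138 ± 2241 in heterozygous libraries. mt-Rnr2 took 27022 ± 3121 reads per 1000000 in homozygous and 16601 ± 4490 in heterozygous libraries. After TMM scaling of whole-gene reads their log2 fold changes were 0.25 (adjusted p = 0.623) and 0.24 (adjusted p = 0.642) in the edgeR test. The messenger RNA values above came from exon reads with another scaling. The 2 kinds of RNA are therefore not compared here.

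Cytosolic ribosomal protein genes showed 3 higher and 26 lower calls among 88 tested (4 and 18 after GC correction), with a median of -0.30 (-0.17 after it), beside 6.96% higher and 6.12% lower of all tested genes (1.38% and 1.05% after it). With 1 library left out the lower calls in this list were 16 to 29, the fewest without library 11, and the higher ones 0 to 4. With GC correction they were 12 to 20 and 3 to 4. Rps14 averaged 108 ± 6.84 CPM in homozygous and 199 ± 34.2 CPM in heterozygous libraries, with 65.7% unique reads. Unique reads were fewer for other genes of this list called lower, at 44.4% for Rpl18, 15.8% for Rps16 and 9.42% for Rps27. Their values, and that of Rps14, are uncertain for that reason. Nuclear genes for oxidative phosphorylation subunits showed 2 higher and 11 lower calls among 79 (0 and 4 after GC correction), with a median of -0.23 in both fits. These 13 calls made up 16.5% of the list, beside 13.1% of all tested genes, but most of them were in the lower direction. Of all tested genes, 6.12% were called lower and 6.96% higher, and 1.05% and 1.38% after GC correction. With 1 library left out the higher calls were 0 to 1 and the lower calls 2 to 14, at most 4 without library 2, 10, 11 or 12, and 0 to 6 with GC correction. Atp5e, a subunit of ATP synthase, averaged 21.02 ± 2.95 CPM in homozygous and 37.9 ± 5.89 CPM in heterozygous libraries, with a log2 fold change of -0.85 (SE 0.21, adjusted p = 0.0164) and -0.86 after GC correction (adjusted p = 0.0397). Cox6a1, of complex IV, averaged 34.6 ± 10.2 CPM in homozygous and 69.2 ± 10.5 CPM in heterozygous libraries, and its call was lost after GC correction (log2 fold change -0.47, adjusted p = 0.212). Differences between these lists and the mitochondrial ribosomal protein genes were not tested.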

How the data were processed

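Total RNA of 8 sorted-cell libraries was sequenced, 4 per genotype. Per the file headers, the deposited tables give counts of total and unique reads over exons, introns, junctions and whole genes, exon length in bases and the authors' RPKM. Builds are GRCm38 and mm10 per the submitters' processing notes. For aligner, counter and use of strand, the methods are not stated in any source used.

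Total exon reads of all genes were tested with edgeR 4.0.16 (R 4.3.3) by filterByExpr, TMM, the quasi-likelihood F test and Benjamini-Hochberg adjustment. SE was the size of the log2 fold change divided by the square root of F. CPM used TMM-scaled library sizes. The GC correction smoothed log2 CPM, minus each gene's mean over libraries, on the GC content of the longest GENCODE M21 transcript in each library. On counts simulated for this comparison over 12257 genes, edgeR recovered 52 of 100 genes changed 2-fold and 84 of 100 changed 4-fold, with 13 false calls. The simulation changed only these genes and gave the libraries no GC slope, unlike the data. Recovery and false calls in the data may therefore differ. Alternatives were DESeq2 1.42.0, other scaling, filters, read types, GC and exon-length corrections, and each library left out. Kinases with ribosomal protein names were kept out of the cytosolic ribosomal list.

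Named members were those called, the largest changes and extreme levels in each subunit, 12 fixed by name and those with under 80% unique reads. Members and lists were chosen with earlier results of these data known. Exon reads per library, 2502387 to 3009181, put 6 reads or more on each member in every library, so counting error is large for the lowest. Counting intervals and limits cover counting error only.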

Additional observations from a re-analysis of the deposited data

Results flagged for a closer look

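In 84 sets of 4 libraries, 5 had 1 library far from the other 3, about what chance gives at 1 in 20. In heterozygous cells, Mrpl34 was at 37.7 CPM in 1 library and 21.2 to 22.7 CPM in the others. Mrps18c was at 35.5 CPM in 1 heterozygous library and 20.4 to 22.7 CPM in the others, and Mrpl3 at 49.1 CPM in 1 and 37.8 to 39.4 CPM in the others. Mrps18b was low in 1 heterozygous library, at 6.94 CPM, against 16.04 to 17.2 CPM in the others. Mrpl17 was at 58.1 CPM in 1 homozygous library and 29.1 to 32.6 CPM in the others. None of these genes was called between genotypes.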

How the results depend on the processing

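Of 29 alternatives, 13 did not leave libraries out 1 at a time, though 1 of these kept only libraries with an intron share above 60%. The 13 gave the 40 named members 401 values of unchanged direction and call, 6 that passed the threshold, 9 that lost it and 80 that turned sign. Beside Mrpl10 and Mrpl38, 7 members were called in at least 1 alternative: Mrps24, Mrpl4, Mrpl15, Mrpl23, Mrpl35 and Mrpl54 lower and Mrpl18 higher, of which Mrpl4, Mrpl15, Mrpl35 and Mrpl54 are named after their values were seen. The intron share covariate, the libraries with an intron share above 60% (3 homozygous, 2 heterozygous) and the joint GC and exon length correction were chosen after seeing the data. No paired analysis was possible because no homozygous and heterozygous library share a number.

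Small-subunit members called lower were 1 (Mrps24) with no low-count filter. Large-subunit members called higher were 1 (Mrpl18) with GC and exon length correction, with exon length correction and with the intron share covariate. Large-subunit members called lower were 0 with GC correction, with GC and exon length correction, from intron reads and from total gene reads, and 1 from junction reads. Of all genes (853 higher and 750 lower), those called higher were 559 with a 1 CPM filter, 175 with GC and exon length correction, 169 with GC correction, 492 from junction reads, 5 from intron reads, 1451 with the covariate, 366 in libraries above 60% and 0 from total gene reads. Those called lower were 213 with GC and exon length correction, 128 with GC correction, 286 from junction reads, 91 from intron reads, 1260 with the covariate, 380 above 60%, 1365 with no filter and 6 from total gene reads. Calls in the companion lists were 33 with GC and exon length correction, 34 with GC correction, 27 from junction reads, 6 from intron reads and 1 from total gene reads. The split of higher and lower calls was 774 and 810 with RLE size factors and 751 and 843 from unique reads. With no filter the median of all genes was 0.384 against 0.045.

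The small-subunit median was 0.020 from junction reads, -0.274 from intron reads, -0.256 with no filter and -0.541 from total gene reads. The large-subunit median was -0.406 from intron reads, -0.281 with no filter and -0.535 from total gene reads. The cause was not tested.

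Log2 fold changes that turned sign were as follows. From intron reads they were Mrps10 -1.021, Mrps25 -0.822, Mrps28 0.219, Mrps35 -0.124, Mrpl52 -1.310, Mrpl33 -0.155, Mrps36 -0.158, Mrps18c 0.398, Mrpl42 -0.629, Mrps33 -0.042 and Mrps5 -0.231. From total gene reads they were Mrps10 -0.154, Mrps25 -0.094, Mrps28 0.358, Mrps35 -0.208, Mrpl18 -0.010, Mrpl52 -0.451, Mrps22 -0.094, Mrps36 -0.105, Mrpl40 -0.459, Mrpl21 -0.205, Mrpl53 -0.332, Mrpl42 -0.252, Mrpl17 -0.339, Mrps33 -0.432 and Mrps5 -0.353. From junction reads they were Mrps6 0.028, Mrpl32 -0.018, Mrpl52 -0.072, Mrps34 0.097, Mrps18a 0.012, Mrpl21 -0.223 and Mrps33 -0.023. With a 1 CPM filter they were Mrps35 -0.004, Mrpl40 -0.094, Mrpl21 -0.051 and Mrps33 -0.064. With GC and exon length correction they were Mrps35 -0.428, Mrpl41 0.223, Mrpl34 0.143, Mrpl1 -0.150, Mrps34 0.056, Mrps18a 0.025, Mrpl12 0.021, Mrpl44 0.061, Mrpl2 0.101, Mrpl48 -0.138, Mrpl42 -0.162, Mrpl17 -0.283, Mrps33 -0.163 and Mrps5 -0.185. With GC correction they were Mrps35 -0.231, Mrpl41 0.015, Mrpl1 -0.135, Mrps18a 0.027, Mrpl48 -0.045, Mrpl42 -0.169, Mrpl17 -0.123, Mrps33 -0.318 and Mrps5 -0.069. With exon length correction they were Mrps35 -0.099, Mrpl41 0.094 and Mrps5 -0.005. With no low-count filter they were Mrps35 -0.035, Mrpl40 -0.128, Mrpl21 -0.082, Mrps33 -0.099 and Mrps5 -0.016. In libraries with an intron share above 60% they were Mrpl3 0.023, Mrpl44 0.084, Mrpl27 0.054, Mrpl40 -0.126 and Mrpl42 -0.020. From unique exon reads they were Mrpl27 0.059, Mrpl21 -0.128 and Mrpl17 -0.193. With DESeq2 they were Mrpl40 -0.018. With RLE size factors they were Mrpl40 -0.018. With the intron share covariate they were Mrpl40 -0.019 and Mrpl21 -0.008.

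With 1 library left out, with and without GC correction, small-subunit members called lower ran from 0 to 1, large-subunit members called lower from 0 to 5, all genes called higher from 62 to 962 and lower from 42 to 1115, calls in companion lists from 19 to 64, and the small-subunit median from -0.281 to -0.107. Without GC correction, large-subunit members called lower were 1 without library 1, 2 or 10, 5 without library 3, 0 without library 4, 11 or 12 and 2 without library 9. Log2 fold changes of members that turned sign ran as follows: Mrps25 -0.070 to 0.586, Mrps35 -0.384 to 0.262, Mrpl32 -0.008 to 0.830, Mrpl41 -0.262 to 0.124, Mrpl34 -0.705 to 0.095, Mrpl33 -0.028 to 0.501, Mrpl1 -0.315 to 0.501, Mrps22 -0.070 to 0.227, Mrps34 -1.190 to 0.172, Mrps36 -0.148 to 0.410, Mrps18a -0.322 to 0.107, Mrpl44 -0.560 to 0.036, Mrpl2 -0.673 to 0.095, Mrpl40 -0.176 to 0.432, Mrpl21 -0.229 to 0.334, Mrpl53 -0.012 to 0.746, Mrpl48 -0.222 to 0.357, Mrpl42 -0.472 to 0.397, Mrpl17 -0.408 to 0.340, Mrps33 -0.515 to 0.243, Mrps5 -0.190 to 0.183. Low read counts limit small differences: 61 of 78 members had at least 30 reads in every library.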
